A study of Gallus gallus with 6 samples.

Results

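Ovotransferrin (TF, ENSGALG00000006453) and melanotransferrin (MELTF, ENSGALG00000006855) are the transferrin-family genes followed here, 2 of the 19152 genes counted in the magnum of Hy-Line white hens. They were chosen by their identifiers as members of one family of iron-binding proteins, by a rule that uses no measured value but was written with earlier results of these data known. MELTF is also among the genes that the authors listed as differentially expressed in these libraries. The magnum is where the oviduct makes egg white and secretes it around the yolk. One mRNA library was sequenced from each of 3 laying hens and from each of 3 non-laying hens of 35 to 60 weeks. The laying hens were 35 weeks old and were sampled 3 h after ovulation, with the egg in the magnum. Their tissue was taken immediately before the site of the egg. Birds of several flocks made up the non-laying group, and they had an atrophied oviduct with no follicular growth, so age, flock and the state of the gland differed together between the groups and cannot be told apart.

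Transferrins are folded into lobes, and iron is held in the cleft of a lobe together with an anion. Ovotransferrin, also called conalbumin, is among the most abundant proteins of egg white, where it keeps iron from bacteria, and in birds the same gene also gives the transferrin of the blood. Its transcription in the tubular gland cells of the oviduct is induced by sex steroids. Melanotransferrin is a family member that is tied to the cell membrane and was first described as an antigen of human melanoma. The annotation also lists the chicken gene as EOS47, a name from its use as a surface antigen of the eosinophil lineage.

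MELTF is on chromosome 9, from 12490752 to 12507471 in Galgal 5.0, with 3636 bases of exon sequence. RefSeq's annotation of a later assembly, GRCg7b, puts TF on the same chromosome, with SLCO2A1 and SRPRB as the nearest genes on one side and GAL3ST4 and AQP12A on the other, and puts MELTF between PIGZ and DLG1. The only sequences used here that belong to a member are the primers with which the study measured MELTF mRNA by qPCR. They are shown because they mark the transcript that the name MELTF stands for in this study. Both are 20 bases long.
MELTF forward primer: gctccaacatcaccatcaac
MELTF reverse primer: tcactaacagctttcgggag

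The libraries held between 18840068 and 25763750 counts. One gene, ENSGALG00000012869, which carries no name in the tables used here, took 51.5%, 49.4% and 53.6% of the counts of laying hens 1, 2 and 3, against 19.8%, 36.5% and 1.33% in non-laying hens 1, 2 and 3. Non-laying hen 3 thus stood apart from the other hens of its group, and results for TF are given with and without it. Because one gene filled such an unequal part of the libraries, levels are given on both of the scales used here. CPM of total counts, the counts of a gene in every 1000000 counts of the library, is the plain share of a library. CPM (TMM) uses a library size rescaled with TMM, the trimmed mean of M-values, which is set so that most genes do not differ between libraries. The scales do not agree on the typical gene: the median log2 fold change of laying over non-laying hens was 0.00 with TMM and -1.80 with total counts, over 12499 tested genes.

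TF was one of the most highly expressed genes in every hen, laying or not. It had rank 3, 3 and 2 by count among all genes in laying hens 1, 2 and 3, against rank 2, 2 and 1 in non-laying hens 1, 2 and 3. Per length of transcript, TF had 44327, 32773 and 31893 RPKM in laying hens 1, 2 and 3, against 38971, 31354 and 8259 RPKM in non-laying hens 1, 2 and 3. By this measure it had rank 3 or 4 among all genes in each of the 6 hens.

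The share of a library's counts that TF took was 7.95%, 6.56% and 6.78% in laying hens 1, 2 and 3, against 8.35%, 6.98% and 1.74% in non-laying hens 1, 2 and 3. The groups overlapped: non-laying hen 1 had the largest share of the 6, and non-laying hen 2 was above laying hens 2 and 3. These shares are precise as counts, since the 95% Wilson interval was 8.34% to 8.36% in non-laying hen 1 and 1.738% to 1.75% in non-laying hen 3, although such intervals cover counting error only. The mean was 7.09% ± 0.745 in laying hens and 5.69% ± 3.49 in non-laying hens (SD, n = 3 each), a difference of 1.40 percentage points (exact p = 0.9, two-sided permutation test). Without non-laying hen 3 the difference turned round to -0.57 percentage points (exact p = 0.4). The smallest p these tests allow is 0.1 with 3 hens against 3, and 0.2 with 3 hens against 2.

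When the most abundant gene was left out of the sum, TF took 16.4%, 13.0% and 14.6% of the remaining counts in laying hens, against 10.4%, 11.0% and 1.77% in non-laying hens. On this denominator every laying hen lay above every bird of the other group (exact p = 0.1, two-sided permutation test). Leaving that gene out raises the share of every other gene, and by more in laying hens, where it filled more of each library. How many genes have groups that do not overlap on this denominator was not counted. TMM scaling gave the same order of groups. TF had 178570, 105460 and 113110 CPM (TMM) in laying hens 1, 2 and 3, against 48511, 58591 and 5933 CPM (TMM) in non-laying hens 1, 2 and 3. Of all tested genes, 32.6% had groups that did not overlap on the TMM scale and 15.1% were non-overlapping with laying hens higher, so that a separation of this kind was common.

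**Figure D1:**
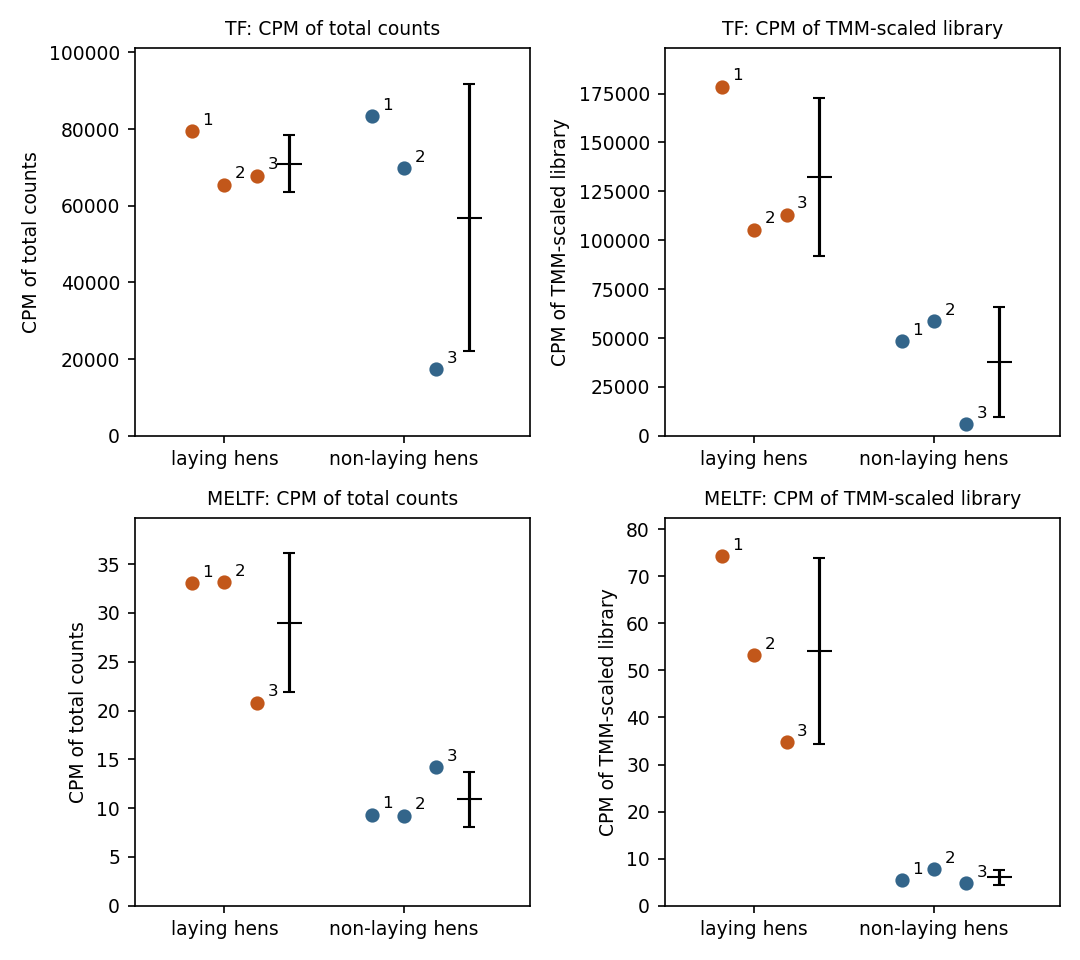
Levels of TF (top) and MELTF (bottom) in each hen, as CPM of total counts (left) and of the TMM-scaled library (right), with hens numbered within laying (left) and non-laying (right) groups and black bars giving the mean ± SD. TF overlapped between the groups as a share of total counts and did not overlap after TMM scaling, whereas MELTF was higher in all 3 laying hens on both scales.

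Across all genes, the groups were compared by edgeR's quasi-likelihood test, and a gene was called at a fold change over 3 with a Benjamini-Hochberg adjusted p under 0.05, the thresholds of the study. By this rule 4.98% of the 12499 tested genes were called in either direction, and 1.28% as higher in laying hens. TF was not called. After TMM scaling its fitted level in laying hens was 3.51 times that of the other group, and this log2 fold change of 1.81 had a 95% confidence interval of -1.18 to 4.81 (standard error 1.31, edgeR adjusted p = 0.415). The mean was 132380 ± 40185 CPM (TMM) in laying hens and 37678 ± 27950 CPM (TMM) in non-laying hens (SD, n = 3 each). Without non-laying hen 3 the log2 fold change of TF was 1.31 (standard error 0.72, edgeR adjusted p = 0.309).

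The result for TF depended on the test and on the scale. DESeq2, run on the same counts, gave almost the same log2 fold change, 1.83, with a standard error of 0.63, and called TF (adjusted p = 0.0303). It called 6.15% of 16392 genes in either direction and 1.79% as higher in laying hens. The authors' own DESeq2 run, in Array Studio with these thresholds, gave 540 genes, against 1008 in this run, so the runs are not the same. On total counts the log2 fold change of TF was 0.32 (standard error 0.73, edgeR adjusted p = 0.677), and there without non-laying hen 3 it was -0.11. By the same test and thresholds 63.2% of genes were called on total counts and only 0.376% as higher in laying hens, and TF was not among them. Set against the median gene, TF lay 1.81 above it with TMM and 2.12 above it with total counts on the log2 scale. Of all tested genes, 98.1% had a lower log2 fold change than TF with TMM and 98.6% had a lower one with total counts. In these bulk samples a lower level cannot be divided into fewer gland cells and less RNA per cell.

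TF was next set beside the other transcripts that filled the libraries. Among the 20 genes with the highest mean share of the counts, TF had rank 2 by share and rank 10 by log2 fold change (TMM). Of the 20, edgeR with TMM called 0, and DESeq2 called 6, TF among them, against 4.98% and 6.15% of all genes tested by each. With edgeR 4 of the 20 had an unadjusted p under 0.05, as had 3318 of all 12499 tested genes. The most abundant gene had a larger estimate than TF, 2.74 (standard error 2.37, edgeR adjusted p = 0.499), and ORM1, an egg-white glycoprotein of the orosomucoid family, had 2.78 (standard error 0.92, edgeR adjusted p = 0.102). These differences from TF were not tested on this scale. The other genes called by DESeq2 included ORM1 (adjusted p = 0.000279) and the most abundant gene (adjusted p = 0.0133).

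**Figure D2:**
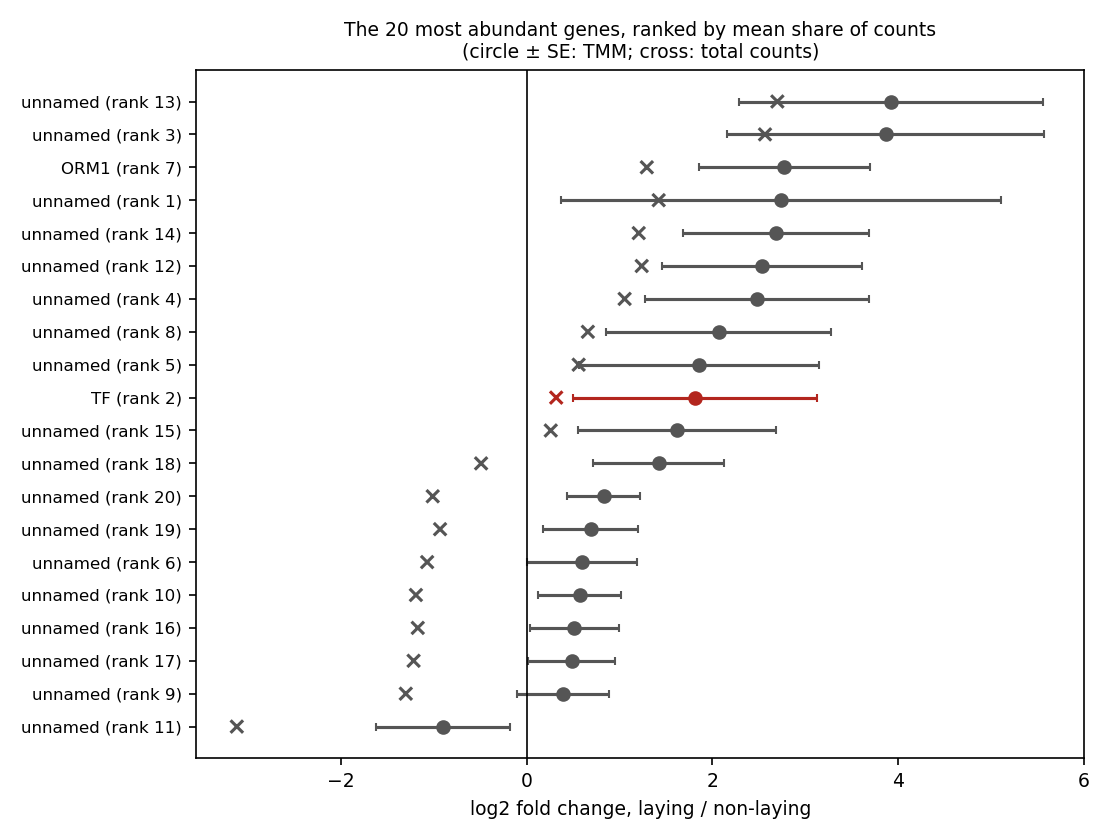
Log2 fold change of laying over non-laying hens (horizontal axis) for the 20 genes with the highest mean share of counts, with circles and bars giving the TMM estimate ± SE, crosses the estimate on total counts, and TF in red. TF had rank 10 of the 20 at 1.81 with TMM and 0.32 with total counts. All but 1 of the 20 circles lay above 0, while several crosses lay below it. The median of all tested genes was 0.0035 with TMM and -1.80 with total counts.

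A ratio of genes within a library does not depend on library scaling, so TF was also set against other egg-white genes hen by hen. The planned ratios to ovalbumin, lysozyme and ovomucoid were not analysed here, as the tables used pair no identifier with those names. The 4 egg-white genes AVD, AvBD11, ORM1 and CLU could be used instead, together with the most abundant gene. These ratios were added after the data were seen, and the 4 genes carry names only because the authors listed them as differentially expressed, so a difference from TF was partly built into the choice. Avidin (AVD) binds biotin and keeps it from microbes. TF had 29.2, 19.2 and 37.2 times the RPKM of AVD in laying hens 1, 2 and 3, against 5593, 6845 and 545 times in non-laying hens 1, 2 and 3. The groups lay far apart. AVD itself had a mean of 798 CPM of total counts in laying hens and 5.23 CPM in non-laying hens.

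Against AvBD11, a defensin of egg white, TF had 25.0, 15.2 and 18.8 times the RPKM in laying hens, against 125, 61.2 and 48.5 times in non-laying hens. The mean of the log2 ratio was 4.27 in laying hens and 6.17 in non-laying hens, which is a 3.73-fold lower ratio in laying hens. AvBD11 itself was called as higher there with TMM (log2 fold change 3.94, standard error 0.72, edgeR adjusted p = 0.0199), and not without laying hen 1 (0.0888), laying hen 2 (0.0785) or non-laying hen 1 (0.073). Against the most abundant gene TF had 0.161, 0.124 and 0.111 times the RPKM in laying hens, against 0.368, 0.161 and 1.16 times in non-laying hens. By RPKM the groups thus met at laying hen 1 and non-laying hen 2. As ratios of estimated counts the values were 0.154, 0.133 and 0.127 in laying hens, against 0.421, 0.191 and 1.31 in non-laying hens. In counts the groups did not overlap (exact p = 0.1, two-sided permutation test). How many of all genes have a ratio to TF that does not overlap between the groups was not counted, for RPKM or for counts. The ratios to ORM1 and to clusterin (CLU), a secreted chaperone, overlapped between the groups. Two-sided exact permutation tests over 6 ratios of RPKM, the ratio to MELTF included, gave p = 0.1 for AVD and AvBD11, p = 0.2 for the most abundant gene, p = 0.6 for ORM1 and p = 0.8 for CLU. After Benjamini-Hochberg adjustment over the 6, the lowest of these exact p-values was 0.3.

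**Figure D3:**
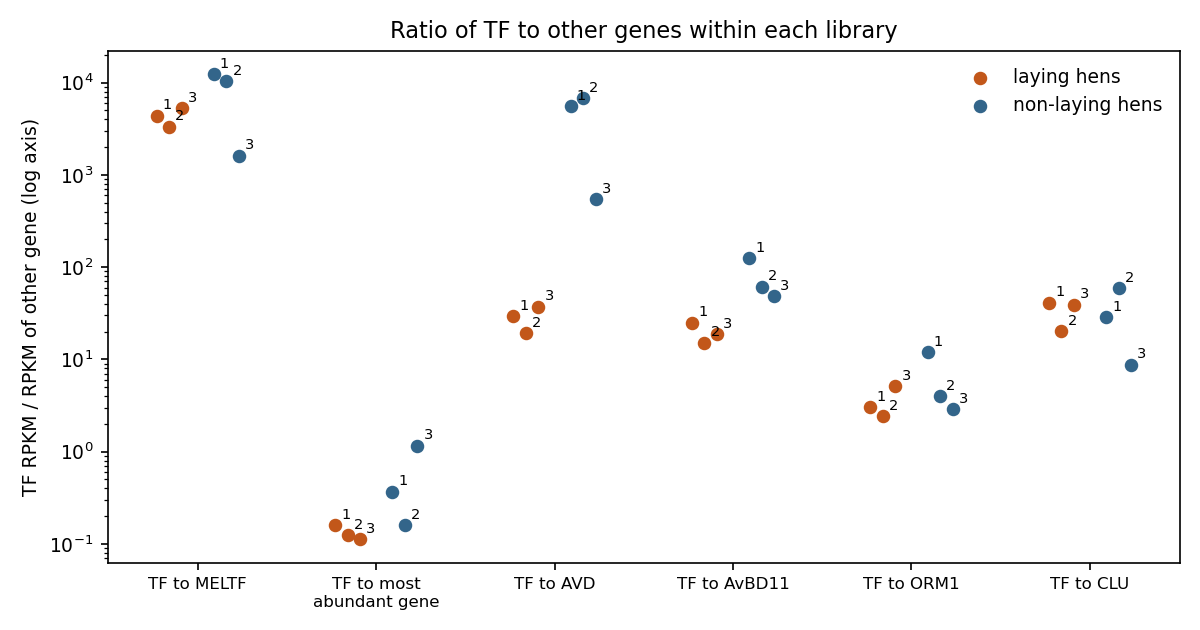
RPKM of TF divided by the RPKM of 6 other genes within each library (log axis), with laying hens in orange to the left of non-laying hens in blue and hens numbered within their group. The ratios to AVD and AvBD11 were lower in every laying hen, and the ratios to MELTF, ORM1 and CLU overlapped. How many of all genes have a ratio to TF that does not overlap was not counted.

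MELTF was transcribed at a far lower level than TF and was higher in laying hens. Its estimated counts were 829.5, 853.9 and 519.1 in laying hens 1, 2 and 3, against 212, 230 and 267 in non-laying hens 1, 2 and 3. As CPM of total counts MELTF had 33.1, 33.1 and 20.8 in laying hens, against 9.33, 9.23 and 14.2 in non-laying hens. The lowest laying hen was above the highest non-laying one (exact p = 0.1, two-sided permutation test). Ranked by RPKM within its library, MELTF was gene 2163, 2955 and 4315 from the top in laying hens 1, 2 and 3, against 9655, 8871 and 10331 in non-laying hens 1, 2 and 3. The closest pair in CPM was laying hen 3, with a 95% Wilson interval of 19.1 to 22.7 CPM, and non-laying hen 3, with 12.6 to 15.98 CPM. On this scale 83.4% of tested genes had groups that did not overlap, and 0.464% had every laying hen above every non-laying hen.

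After TMM scaling MELTF had 74.3, 53.3 and 34.7 CPM in laying hens 1, 2 and 3, against 5.42, 7.74 and 4.82 CPM in non-laying hens 1, 2 and 3. The means were 54.1 ± 19.8 CPM in laying hens and 5.996 ± 1.54 CPM in non-laying hens (SD, n = 3 each, TMM). MELTF was called as higher in laying hens, with a 9.04-fold difference and a log2 fold change of 3.18 (standard error 0.34, 95% confidence interval 2.39 to 3.96, edgeR adjusted p = 0.00711). It had the 18th lowest p of the 12499 genes tested and the 40th largest fold change of the 160 genes called as higher.

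The size of the MELTF difference depended on the scale more than its direction did. On total counts its log2 fold change was 1.41 (standard error 0.50, edgeR adjusted p = 0.013), under the threshold on the fold change, so that MELTF was not among the 0.376% of genes called as higher there. Relative to the median gene, MELTF lay 3.17 above it with TMM and 3.21 above it with total counts on the log2 scale. By limma the difference was 1.01 on the log2(RPKM + 1) scale (adjusted p = 0.0589) and 1.18 on the log2(RPKM + 0.1) scale (adjusted p = 0.0494), where the median gene was at -1.35 and -1.67. These fits used RPKM, which is relative to each library's summed counts and was not scaled by TMM. It also rests on a length for MELTF that differed between libraries. A pseudocount understates the change of low genes, and its part in these values was not tested beyond this pair of settings.

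With TMM scaling, MELTF was called whichever hen was left out. Leaving out each hen in turn was not done in fits on total counts. Without laying hen 1 only 20 genes were called and without laying hen 2 only 16, and MELTF was among them at edgeR adjusted p-values of 0.0426 and 0.0429. Over the 6 fits without a hen its log2 fold change was between 2.88 and 3.42, with edgeR adjusted p-values from 0.00381 to 0.0429. In all, 13 genes were past both thresholds with all hens and in each of these 6 fits, which is 0.104% of the genes tested, and 7 of the 13, or 0.056% of the genes tested, were higher in laying hens. MELTF was one of the 7.

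**Figure D4:**
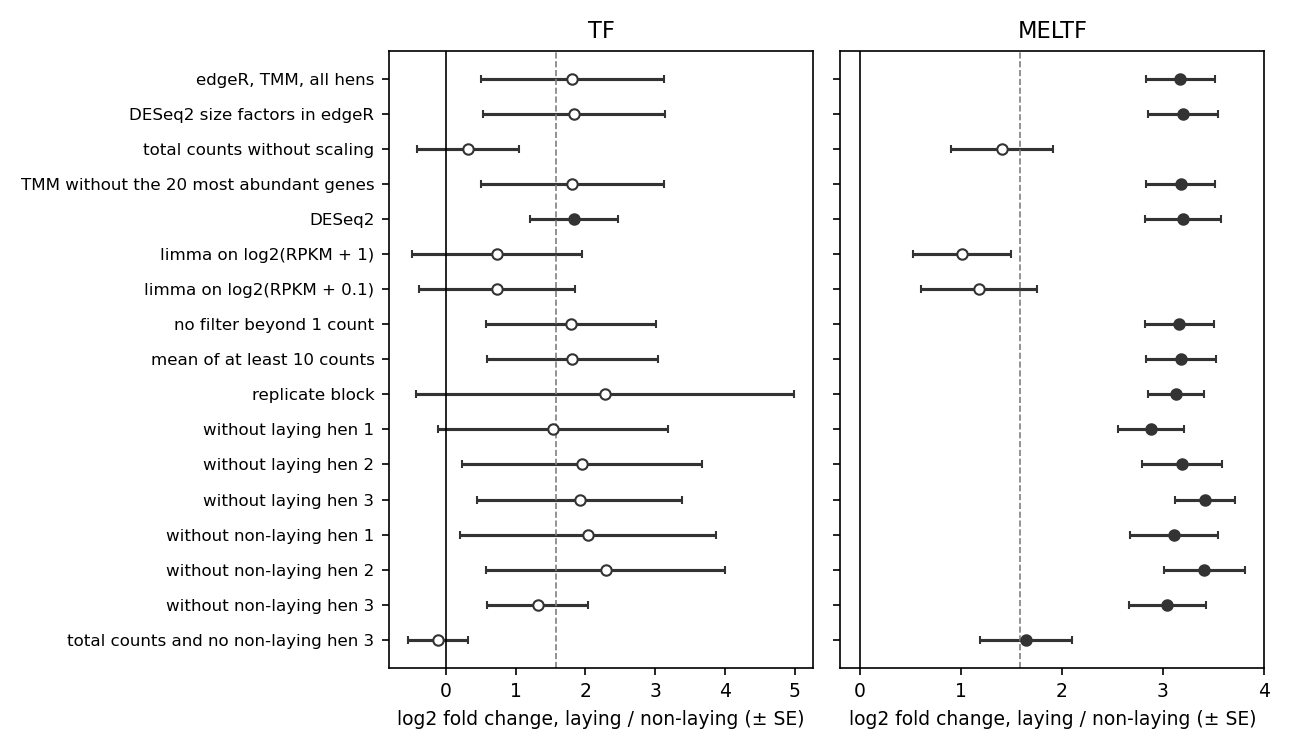
Log2 fold change of laying over non-laying hens ± SE for TF (left) and MELTF (right) under each setting, with filled circles past both thresholds, the solid line at 0 and the dashed line at a 3-fold difference. TF was past both thresholds only with DESeq2, whereas MELTF was past them in all settings but total counts with all hens and both limma fits on RPKM.

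Markers of other cells differed in level between the groups. Of 49 marker genes of 8 cell types listed for this comparison, the tables pair 5 with an identifier, and these 5 are genes that the authors picked as differentially expressed. PTPRC (CD45), the surface phosphatase carried by leukocytes and the only one of 7 leukocyte markers paired, had 3.68, 5.12 and 5.75 CPM (TMM) in laying hens, against 12.1, 14.1 and 34.1 CPM (TMM) in non-laying hens. It was lower in laying hens, by a log2 fold change of -2.05 (standard error 0.43, edgeR adjusted p = 0.0286). Without laying hen 1, 2 or 3 the adjusted p of PTPRC was 0.129, 0.111 and 0.0546 (edgeR), and without non-laying hen 3 its log2 fold change of -1.42 was within the threshold. The fibroblast genes COL3A1 and LUM, 2 of 6 listed, summed to between 254 and 280 CPM (TMM) in laying hens, against 1032 to 2046 CPM (TMM) in non-laying hens. CCDC39, 1 of 8 markers of ciliated cells, had between 2.96 and 9.69 CPM (TMM) in laying hens, against 18.1 to 33.0 CPM (TMM) in non-laying hens. Without a hen in turn, the highest edgeR adjusted p was 0.0868 for COL3A1, 0.0633 for LUM and 0.124 for CCDC39. None of these markers was at 0 in any library. Of the 4 markers of the tubular gland only AVD was paired, with between 838 and 2000 CPM (TMM) in laying hens, against 2.26 to 3.03 CPM (TMM) in non-laying hens. The part of the cell composition in the results for TF and MELTF was not tested.

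The family members were also compared with each other. Per length of transcript, TF had 4391, 3341 and 5330 times the RPKM of MELTF in laying hens 1, 2 and 3, against 12384, 10324 and 1619 times in non-laying hens 1, 2 and 3. Non-laying hens 1 and 2 were above all laying hens and non-laying hen 3 was below all of them. The log2 ratio averaged 12.1 ± 0.339 in laying hens and 12.5 ± 1.62 in non-laying hens (SD, n = 3 each), a difference of -0.47 (exact p = 0.7, two-sided permutation test). This test did not show that TF and MELTF differ in their response, and with this spread it does not show that they respond alike. Without non-laying hen 3 the difference in the log2 ratio was -1.40, and without non-laying hen 1 it was 0.065. On total counts non-laying hen 3 had the lowest share of TF and the highest share of MELTF in its group, whereas with TMM it was the lowest of its group for both.

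The 5 genes whose pattern was most like that of each member were found by Pearson's r of log2 CPM over the 6 libraries, among 11451 other genes, as a description with no test. The order of these genes depended on the scaling. The gene most like TF with TMM was ENSGALG00000010293 (r = 0.998), which had rank 3 on total counts (r = 0.959). The other 4 on each scale differed. With TMM 317 genes had an r over 0.95 with TF, and with total counts 5 genes did. The points share their library, its depth and its scaling factor. For MELTF 251 genes had an r over 0.95 with TMM and 6 genes with total counts. The named genes among its 5 closest with TMM were GPX3, a secreted glutathione peroxidase, and the amino acid transporter SLC7A9 (r = 0.995 each). All 5 on total counts were named, and they were the serine protease TMPRSS9 (r = 0.994), KIAA1109 (r = 0.971), GPX3 (r = 0.969), AVD (r = 0.965) and BHLHE23 (r = 0.964). Apart from TF, a gene carries a name here only because the authors listed it as differentially expressed. On total counts MELTF was among the 0.464% of tested genes with every laying hen above every non-laying hen. Whether this bears on the number of genes with a pattern like that of MELTF was not tested. Between TF and MELTF r was 0.796 with TMM and 0.123 on total counts.

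Of the genes that neighbour TF and MELTF on the chromosome, 1 is paired with an identifier in the tables used here, because the authors listed it as differentially expressed. SLCO2A1, a prostaglandin transporter at 4558704 to 4581991 on chromosome 9, lies next but one to TF. It had 75.4, 61.6 and 30.7 CPM (TMM) in laying hens, against 16.8, 13.2 and 15.6 CPM (TMM) in non-laying hens. SLCO2A1 was called as higher in laying hens (log2 fold change 1.88, standard error 0.33, edgeR adjusted p = 0.0186), and on total counts its mean was 30.1 CPM in laying hens and 30.2 CPM in non-laying hens. It was not called by edgeR once laying hen 1 (adjusted p = 0.0854), laying hen 2 (0.08) or non-laying hen 1 (0.054) was left out.

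The wider handling of iron could be followed only in part. Of 68 genes listed for iron uptake and export, storage and sensing, haem and iron-sulphur clusters, 1 is paired with an identifier, so the lists, with the transferrin receptor, ferroportin and ferritin among them, were not analysed here and no count of them is given. The paired gene is FLVCR2, a membrane transporter described in mammals as carrying haem or choline, which the authors listed as differentially expressed. FLVCR2 had 293, 1311 and 91 counts in laying hens 1, 2 and 3, against 144, 109 and 113 counts in non-laying hens 1, 2 and 3. Laying hen 2 stood far above the other hens, and laying hen 3 had fewer counts than any non-laying hen. After TMM scaling FLVCR2 was called (log2 fold change 3.61, standard error 0.81, edgeR adjusted p = 0.0353). Without laying hen 2 its log2 fold change was 2.37 (edgeR adjusted p = 0.105), and it was also not called without laying hen 1 (0.103) or without non-laying hen 1, 2 or 3 (0.093, 0.062 and 0.0729, all edgeR adjusted p).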

How the data were processed

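RNA of magnum tissue was sequenced as stranded mRNA, with single-end reads that the authors cleaned with Prinseq, aligned to Galgal 5.0 and assigned to Ensembl genes in Array Studio. The deposited estimated counts are not normalized, with 5.98% to 8.84% of values per library not whole, and were rounded for the count tests. The authors computed the deposited RPKM values relative to each library's summed counts. The deposited table of differentially expressed genes was used for names, positions and exon lengths, with further names from the study's own list of these genes and TF paired by its identifier. Its fold changes, p-values and group means were not used. Genes were filtered with filterByExpr, scaled by TMM and fitted without covariates in edgeR 4.0.16 (R 4.3.3), with DESeq2 1.42.0, limma 3.58.1, other scalings and filters, a replicate block and each hen left out in turn as alternatives, after the fit was tested on simulated data. Shares and ratios were compared by exact permutation tests in scipy 1.17.1. Named genes were the members, paired genes of the lists, chromosomal neighbours and the 5 genes most like each member. The members and lists were chosen with earlier results of these data known. Whether counting used strand is not given in the sources used here. Each library came from a separate hen.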

Additional observations from a re-analysis of the deposited data

How the results depend on the processing

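The log2 fold change of TF kept its direction in 15 of 16 alternatives and was past both thresholds only with DESeq2 (1.83). It was negative, at -0.11, on total counts without non-laying hen 3, a setting chosen after seeing the data, and lay between 1.31 and 2.29 with 1 hen left out. MELTF stayed higher in all 16 and past both thresholds in 13. The exceptions were total counts (1.41) and limma on log2(RPKM + 1) and log2(RPKM + 0.1) (1.01 and 1.18). The number of genes past both thresholds was 623, and it was 7896 on total counts, 4606 on total counts without non-laying hen 3, 3845 and 7040 with the limma fits, 1008 with DESeq2, and between 16 and 639 with 1 hen left out. Laying hens were higher for 160 of the 623 and for 47 of the 7896. The cause of these moves was not tested. The difference in the share of TF ranged from -0.57 to 2.73 percentage points with 1 hen left out, that in the log2 ratio of TF to MELTF from -1.40 to 0.065, and that in the log2 ratio of TF to CLU from -0.37 to 1.02. SLCO2A1 was at -0.0044 on total counts. For TF and for MELTF, 1 of the 5 genes with the most similar pattern was shared between TMM and total counts.

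Laying and non-laying hens share replicate numbers that mark no common source. With the replicate block 397 genes were past both thresholds, TF had a log2 fold change of 2.28 (edgeR adjusted p = 0.624) and MELTF one of 3.13 (edgeR adjusted p = 0.0258). Same-numbered hens had correlated deviations of 0.179, -0.065 and 0.026, and not every hen correlated best with its own number. The ratios of TF to ovalbumin, lysozyme and ovomucoid and the counts of iron-handling genes were not run, for want of paired identifiers. For TF the SD among non-laying hens was 3.49 percentage points, while a Wilson interval was 8.34% to 8.36%.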

Other observations

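The deposited RPKM values imply a gene length, from the count, the RPKM and the total counts of the library, and for TF and MELTF this length was not the same in every library. For MELTF it was 3277, 3379 and 3477 bases in laying hens 1, 2 and 3, against 2965, 3040 and 2778 bases in non-laying hens 1, 2 and 3, all shorter than the 3636 exon bases listed for the gene. The groups did not overlap (3378 ± 99.96 bases in laying hens and 2927 ± 135 bases in non-laying hens, SD, n = 3 each, two-sided exact permutation test, p = 0.1). For TF it was 1792, 2000 and 2127 bases in laying hens, against 2142, 2227 and 2112 bases in non-laying hens, which overlapped. Of 4467 genes with at least 200 counts in every library, 10.7% had an implied length that differed over 1.1-fold between libraries and 1.93% had such a difference with groups that did not overlap. The mean of MELTF was 29.0 CPM of total counts in laying hens and 10.9 CPM in non-laying hens, and it was 8.63 RPKM in laying hens and 3.76 RPKM in non-laying hens. The cause of the differing lengths was not tested. With ratios of estimated counts in place of RPKM, the difference in the log2 ratio of TF to MELTF was -0.81.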
